A study of Mus musculus with 9 samples.

Results

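The 10 genes described here are the cellular zinc-handling set of a mouse macrophage line: the metallothioneins Mt1, Mt2 and Mt3, the zinc-sensing transcription factor Mtf1, the zinc exporters Slc30a1 and Slc30a4, and the zinc importers Slc39a1, Slc39a8, Slc39a10 and Slc39a14. They were taken by gene symbol from the 43629 genes listed in every library, and all 10 symbols were found. The cells were RAW264.7, an immortal line with macrophage features that arose from a mouse tumour induced by a leukaemia virus, and their RNA was sequenced in 9 libraries: 3 of untreated cells (Control), 3 of cells given lipopolysaccharide (LPS, a cell wall component of Gram-negative bacteria), and 3 of cells given LPS and sodium butyrate (LPS+NaBu). Butyrate is a short-chain fatty acid made by gut bacteria and an inhibitor of histone deacetylases, and the study's design has it precede the LPS. The dose and time used for these libraries are not given in the sources used here. All NaBu libraries used here also had LPS, so what NaBu does to resting cells cannot be told apart from what it does after LPS.

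Cells keep free zinc very low. Metallothioneins are small cysteine-rich proteins that bind zinc and copper ions, and Mt1 and Mt2 are made in most cells, whereas Mt3 is best known from neurons. MTF-1, the protein of Mtf1, senses free zinc and binds metal response elements (MREs) in the promoters of Mt1, Mt2 and Slc30a1. Zinc transporters form a pair of families that work in opposite directions: ZnT proteins (Slc30 genes) move zinc out of the cytosol, to the outside or into vesicles, and ZIP proteins (Slc39 genes) move it in. In macrophages the metallothioneins and several ZIP transporters are known to respond to inflammatory signals, and zinc is both withheld from and used against engulfed microbes.

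Mt3, Mt2 and Mt1 lie in this order on the plus strand of chromosome 8 (GRCm39, GENCODE M39): Mt3 at chr8:94879220-94881088, Mt2 at chr8:94898819-94900207 and Mt1 at chr8:94905710-94906955. The whole run from the start of Mt3 to the end of Mt1 spans 27736 bases, and 5502 bases separate the end of Mt2 from the start of Mt1. The promoters of Mt1 and Mt2 are shown because these genes sit side by side and yet differed in their response to LPS, and that of Slc30a1 because it is the exporter with known MREs. Each line holds the 250 bases before the RefSeq start site (RefSeq table of build GRCm38.p6), 5′ to 3′ on the gene's strand, and capitals mark each match to the MRE core, TGCACNC or TGCGCNC, searched on both strands. A match on the opposite strand is printed as it reads on the gene's strand, the 2 forms differ at a fixed base and so never match at the same place, and matches on opposite strands may overlap.
Mt1 promoter: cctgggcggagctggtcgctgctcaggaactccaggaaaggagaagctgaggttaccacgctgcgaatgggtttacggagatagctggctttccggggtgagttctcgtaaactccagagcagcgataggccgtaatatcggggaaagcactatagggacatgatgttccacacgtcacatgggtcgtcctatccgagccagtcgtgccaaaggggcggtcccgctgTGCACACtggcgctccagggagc
Mt2 promoter: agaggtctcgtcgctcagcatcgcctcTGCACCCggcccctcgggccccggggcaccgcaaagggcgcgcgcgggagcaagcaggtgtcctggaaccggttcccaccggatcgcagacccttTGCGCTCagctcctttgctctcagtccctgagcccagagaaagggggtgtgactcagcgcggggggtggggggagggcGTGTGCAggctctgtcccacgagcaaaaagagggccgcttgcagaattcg
Slc30a1 promoter: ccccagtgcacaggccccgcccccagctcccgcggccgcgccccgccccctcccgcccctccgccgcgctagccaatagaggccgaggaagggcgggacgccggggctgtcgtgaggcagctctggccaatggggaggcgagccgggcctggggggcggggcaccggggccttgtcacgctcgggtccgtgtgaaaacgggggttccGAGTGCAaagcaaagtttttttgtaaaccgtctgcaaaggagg
Each window occurs once in GRCm39, at chr8:94905467-94905716, chr8:94898996-94899245 and chr1:191638643-191638892, on the plus strand.

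The Mt2 window held 3 MRE matches, and the Mt1 and Slc30a1 windows held 1 each. Of 32851 RefSeq promoter windows of this length, 21.4% held at least 1 match, 5.18% at least 2 and 1.26% at least 3. The window of Slc30a4, whose product loads zinc into vesicles, held 2 matches. The windows of Mtf1, Slc39a1 and Mt3 and both windows of Slc39a10 held none, and of the windows of Slc39a8 only 1 of 2 held a match. The table has no entry for Slc39a14.

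The RefSeq start of Mt1 lies upstream of most of its MRE cores, so the 500 genomic bases before the start codon were searched too, in the 13561 genes whose start codon lies in the first exon of the canonical transcript. Mtf1, Slc39a1, Slc39a10 and Slc39a14 are not among these genes and were not searched in this way. Mt2 held 7 matches there and Mt1 held 5, counts reached or passed by 0.0737% and 0.678% of these genes. Mt3 and Slc30a4 held 3 each, a number that 6.08% of the genes reached, Slc30a1 held 2 (16.7% of the genes) and Slc39a8 held 1 (42.9%). The Mt1 and Mt2 sites that the windows above do not hold are given below with 11 bases on each side, so that every match counted for these genes is shown, followed by the remaining Slc30a1 site.
Mt1 site 220 bases before the start codon: ccagggagctcTGCACTCcgcccgaaaag
Mt1 site 202 bases before the start codon: cgcccgaaaagTGCGCTCggctctgccaa
Mt1 site 138 bases before the start codon: aaccgcctgctGGGTGCAaaccctttgcg
Mt1 site 124 bases before the start codon: tgcaaacccttTGCGCCCggactcgtcca
Mt2 site 226 bases before the start codon: gaattcgggtcGTGCGCAggcccaggggc
Mt2 site 172 bases before the start codon: agaaaaagggcGTGTGCAggcggcggggg
Mt2 site 153 bases before the start codon: gcggcgggggcGCGTGCAtggtgccttcc
Mt2 site 119 bases before the start codon: ggcggagctttTGCGCTCgacccaatact
Slc30a1 site 196 bases before the start codon: gcctccgggccGAGCGCAgtcgccgcgga
A match describes the letters only, and whether MTF-1 was bound at any of these sites was not measured in the data used here.

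**Figure D1:**
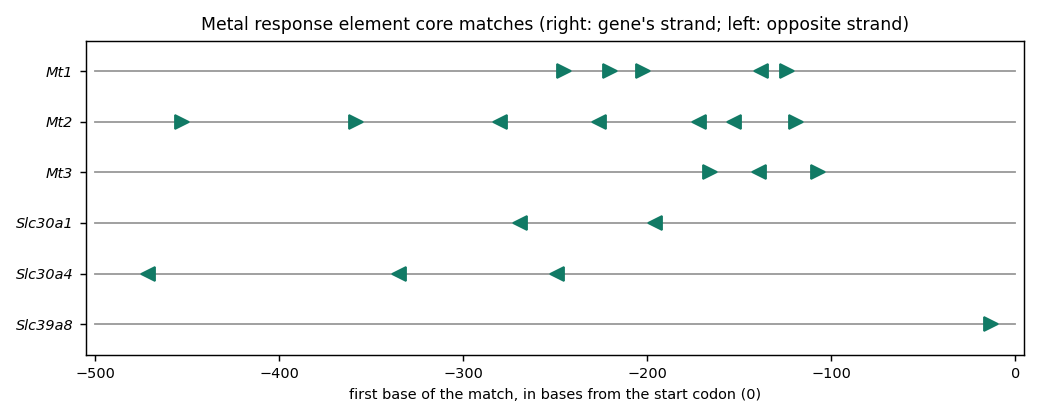
Positions of MRE core matches in the 500 bases before the start codon of 6 genes. Mtf1, Slc39a1, Slc39a10 and Slc39a14 were not in this search. The x axis is the distance in bases from the start codon, and each triangle is 1 match, pointing right on the gene's strand and left on the opposite strand. Mt1 has 5 matches, all within 245 bases of the start codon, Mt2 has 7 spread over 453 bases, and Mt3 has 3 although it was hardly read.

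The libraries held between 37625419 and 64380392 recovered reads each. The values below are normalised counts, which are gene counts divided by 1 size factor per library and not by gene length, so they compare a gene between libraries and not genes with each other. A gene was tested when 3 or more libraries had a normalised count of 10 or higher, which left 14808 genes, among them 9 of the zinc-handling set and not Mt3. Changes are differences of log2(normalised count + 1), given with the standard error (SE), from limma with an intensity trend, and a change was called at a Benjamini-Hochberg adjusted p under 0.05 over all genes tested. Whether the 3 libraries of a group came from separate cultures is not stated, so these p-values measure the spread between libraries, which may be partly technical. In RNA from whole cultures, fewer cells of a type and less RNA per cell cannot be told apart.

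The macrophage genes checked here, among them Lyz2, Cd68 and Csf1r, were abundant in all 9 libraries, but their summed level was 494353 to 516437 in LPS and 210327 to 228223 in LPS+NaBu libraries, against 418673 to 433852 in Control, and all 8 were called lower in LPS+NaBu than in LPS. Lyz2 alone averaged 255390 in Control, so the sum hides single genes. With LPS against Control, 5 were called higher (25.2% of all tested genes), Csf1r lower (-0.77; 30.8%) and Lyz2 and Cd68 neither. With LPS+NaBu against Control, 7 were called lower (35.1%) and Emr1 higher (0.67, 40.9%). Fibroblast markers summed to 6.36 to 12.1 in Control, 11.03 to 16.4 in LPS and 272 to 296 in LPS+NaBu. Of the 6 markers, 4 were tested, Col1a1, Pdgfra, Pdgfrb and Thy1, and these met the filter only through the LPS+NaBu libraries. All 4 were called higher than in LPS, which was thus largely fixed in advance and adds nothing to the sums. B cell markers summed to 5.57 to 20, 2.82 to 12.9 and 35.7 to 50.9. The 2 tested, Cd79a and Cd79b, met the filter only through the LPS+NaBu libraries. Their calls as higher in LPS+NaBu than in LPS were thus largely fixed in advance and add nothing to the sums. Ms4a1 was at 0 throughout. Of all tested genes, 40.2% were called higher and 37.8% lower in that comparison. Endothelial markers summed to 4.02 to 11, 28.2 to 62.1 and 44.0 to 65.3, T cell markers to 8.0 to 15.1, 8.47 to 11.7 and 7.81 to 26.8, and neutrophil markers to 4.02 to 8.0, 15.5 to 29.3 and 18.1 to 21.2. The endothelial Cdh5 and the neutrophil Camp reached 10 in LPS libraries only, and the endothelial Pecam1 in LPS and LPS+NaBu libraries only. They passed the filter through the groups where they were high, so their calls were largely fixed in advance and no conclusion is drawn from them. The 1 tested T cell marker, Cd4, was not called for LPS against Control or for LPS+NaBu against LPS. For LPS+NaBu against Control it was called higher, near the threshold (1.21, limma, adjusted p = 0.0472, beside 40.9% of all tested genes). Epithelial markers were at 0 in Control and LPS and reached at most 13.1 in LPS+NaBu, and of the hepatocyte genes Alb, Ttr and Serpina1a were at 0 in every library, while Apoa1 was at 0 in Control and LPS and at 1.38, 6.69 and 7.26 in LPS+NaBu. The part of these shifts in the changes below was not tested. The response to LPS was checked with Tnf, the inflammatory cytokine gene, whose normalised count averaged 4686 ± 105 in Control, 179534 ± 6954 in LPS and 9250 ± 129 in LPS+NaBu (SD, n = 3).

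**Figure D2:**
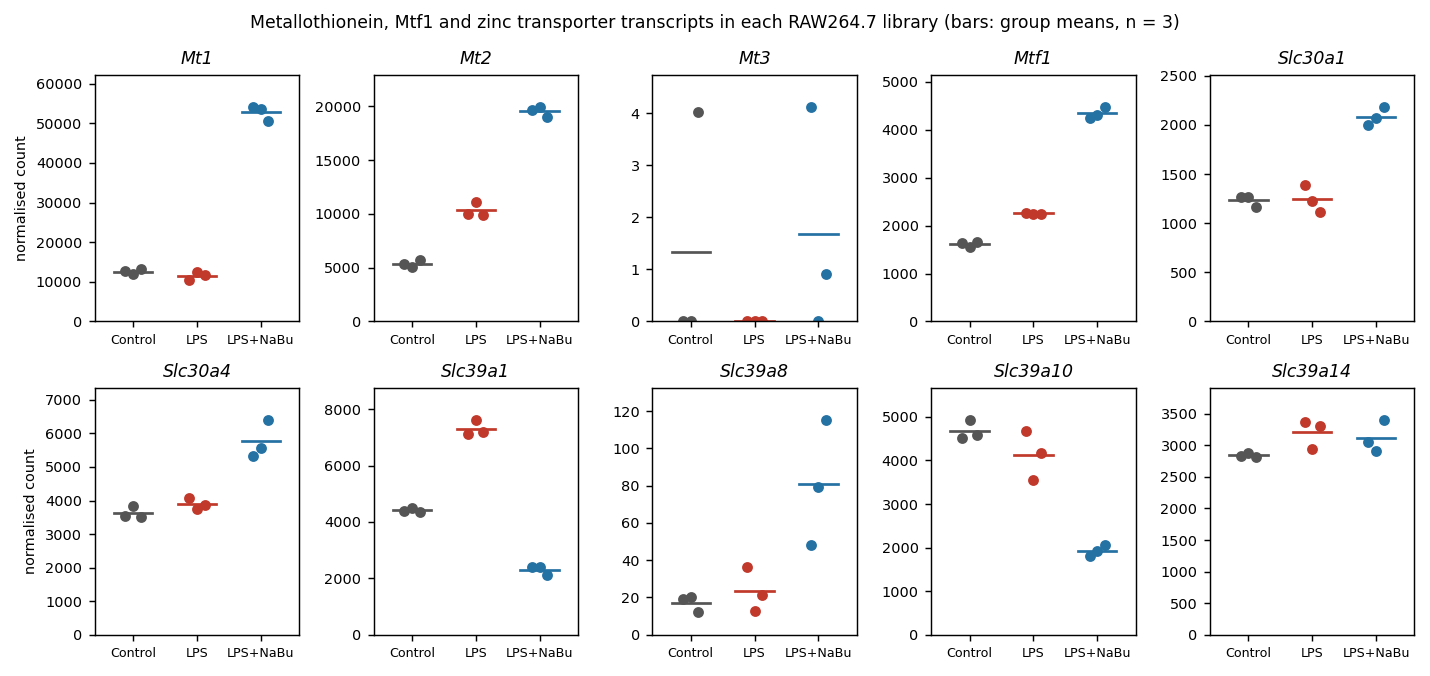
Normalised counts of the 10 genes in each library, on an axis that starts at 0 and is scaled separately for each gene. Points are single libraries (3 per group) and horizontal bars are group means. The LPS+NaBu libraries of Mt1 sit between 50495 and 54158 while those of Control and LPS overlap, Mt2 and Mtf1 climb in steps over the 3 groups, Slc39a1 is highest in LPS and lowest in LPS+NaBu, and Slc39a14 stays between 2810 and 3400 in all groups.

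With LPS alone Mt2 rose and Mt1 was not called, and with LPS+NaBu both rose. Mt1 had normalised counts of 12630, 11934 and 13219 in the Control libraries, 10580, 12537 and 11613 in the LPS libraries, and 54158, 53711 and 50495 in the LPS+NaBu libraries. Control and LPS overlapped, and every LPS+NaBu library was far above both. The LPS+NaBu mean was 4.56-fold that of LPS (log2 change 2.19 ± 0.06 SE, limma, Benjamini-Hochberg adjusted p = 2.48e-12) and 4.19-fold that of Control (2.07 ± 0.06, adjusted p = 4.85e-12). With LPS alone the log2 change of Mt1 from Control was -0.12 with a 95% interval of -0.26 to 0.01 (limma, adjusted p = 0.106). This last value was called lower after scaling every library to 1 common read total, here the same sum of reads (-0.35, adjusted p = 0.000105), by quantile normalization (-0.35, adjusted p = 8e-05), or without LPS replicate 2 (-0.18, adjusted p = 0.0161).

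Mt2 had normalised counts of 5306, 5082 and 5758 in Control, 9948, 11132 and 9926 in LPS, and 19636, 19962 and 18997 in LPS+NaBu. The 3 groups did not overlap, and the fold change from Control to LPS was about as large as that from LPS to LPS+NaBu. The LPS mean was 1.92-fold that of Control (0.94 ± 0.06, limma, adjusted p = 1.27e-08), and the LPS+NaBu mean was 1.89-fold that of LPS (0.92 ± 0.06, adjusted p = 5.59e-09) and 3.63-fold that of Control (1.86 ± 0.06, adjusted p = 6.1e-12). An antisense non-coding gene, Gm45774, shares 783 exonic bases with Mt2 and is not listed in the files, and since it is not known whether reads were counted by strand, its reads cannot be told apart from those of Mt2.

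The balance of the pair needs no scaling between libraries, since both genes were counted in the same library. For each Mt1 read there were 0.420, 0.426 and 0.436 Mt2 reads in Control, 0.940, 0.888 and 0.855 in LPS, and 0.363, 0.372 and 0.376 in LPS+NaBu. The ratio was thus highest after LPS alone, and in LPS+NaBu it was below that of Control although both genes had risen. The means were 0.427 ± 0.00782, 0.894 ± 0.0432 and 0.370 ± 0.00695 (SD, n = 3), and no library of a group overlapped another group. Each pair of groups gave a two-sided exact permutation p = 0.1, the smallest that 3 against 3 libraries allow.

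The combined level of the pair in Control and LPS depended on the scaling. On the scale of normalised counts, Mt1 plus Mt2 summed to 17935, 17016 and 18977 in Control, 20528, 23669 and 21539 in LPS, and 73794, 73673 and 69492 in LPS+NaBu. The 3 groups did not overlap, and the LPS mean was 1.22-fold that of Control (two-sided exact permutation p = 0.1, the smallest possible here). As a share of each library's reads, Mt1 and Mt2 took 394, 379 and 418 RPM (reads scaled to a library total of 1000000) in Control, 391, 443 and 405 in LPS, and 1667, 1676 and 1614 in LPS+NaBu. On this scale Control and LPS overlapped (means 397 ± 19.8 and 413 ± 26.9, SD, n = 3, two-sided exact permutation p = 0.5). The LPS+NaBu mean of 1652 ± 33.8 was 4.0-fold that of LPS, and on the scale of normalised counts it was 3.30-fold (two-sided exact permutation p = 0.1 each).

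**Figure D3:**
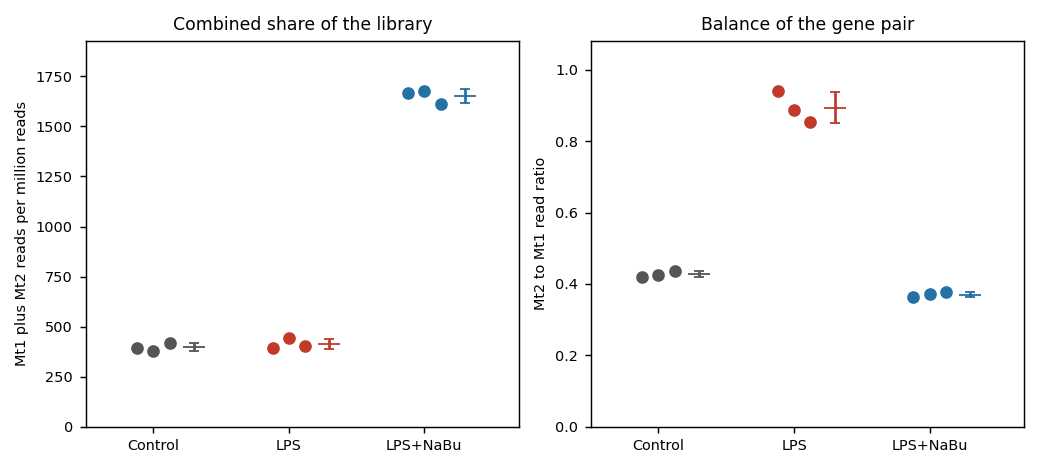
Summed Mt1 and Mt2 RPM (left) and Mt2 reads per Mt1 read (right) in each library, with the group mean and SD (n = 3) beside the points. On the RPM scale Control and LPS overlap at 379 to 443 (as summed normalised counts they do not) and LPS+NaBu lies at 1614 to 1676, whereas the ratio is highest in LPS, at 0.855 to 0.940.

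Mt3, the third metallothionein of the cluster, was hardly read. It had 4 reads in Control replicate 3, 6 in LPS+NaBu replicate 1 and 1 in LPS+NaBu replicate 3, and 0 in the other 6 libraries, which allows up to 3 reads in each of those by counting error alone. No comparison was made for it.

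Mtf1, the gene of the zinc sensor itself, rose with LPS and again with NaBu. Its normalised counts were 1643, 1544 and 1655 in Control, 2265, 2251 and 2247 in LPS, and 4239, 4309 and 4478 in LPS+NaBu. The groups did not overlap, and the LPS libraries lay closest together. The LPS mean was 1.40-fold that of Control (0.48 ± 0.05, limma, adjusted p = 1.55e-06), and the LPS+NaBu mean was 1.93-fold that of LPS (0.94 ± 0.05, adjusted p = 6.47e-10) and 2.69-fold that of Control (1.43 ± 0.05, adjusted p = 1.28e-11). Mtf1 lies at chr4:124695897-124743593 on the plus strand and shares 761 exonic bases with 1110065P20Rik on the other strand, whose normalised count reached at most 596.

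Both exporters rose with LPS+NaBu, and neither was called with LPS alone on the scale of the deposited values. Slc30a1 (chr1:191638808-191645361, plus strand) encodes ZnT1, the zinc exporter of the plasma membrane. Its normalised counts were 1262, 1269 and 1170 in Control, 1390, 1227 and 1110 in LPS, and 2001, 2069 and 2185 in LPS+NaBu. The Control range lay inside the LPS range, and all LPS+NaBu libraries were above both. The LPS+NaBu mean was 1.68-fold that of LPS (0.75 ± 0.08, limma, adjusted p = 1.10e-06) and 1.69-fold that of Control (0.76 ± 0.08, adjusted p = 1.11e-06), while the change for LPS against Control was 0.005 with a 95% interval of -0.16 to 0.17 (adjusted p = 0.967). This change turned to -0.22 and was called lower with the same sum of reads (limma, adjusted p = 0.0326).

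Slc30a4 (chr2:122523004-122544845, minus strand) encodes ZnT4, which moves zinc into vesicles. Its normalised counts were 3550, 3845 and 3501 in Control, 4069, 3750 and 3868 in LPS, and 5319, 5569 and 6399 in LPS+NaBu. Control and LPS overlapped again, with a log2 change of 0.10 and a 95% interval of -0.04 to 0.25 (limma, adjusted p = 0.218), and the change turned to -0.13 with the same sum of reads (adjusted p = 0.158). LPS+NaBu was 1.48-fold LPS (0.56 ± 0.07, adjusted p = 4.35e-06) and 1.59-fold Control (0.66 ± 0.07, adjusted p = 8.98e-07).

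The importers did not move as a group: Slc39a1 and Slc39a10 fell with LPS+NaBu, Slc39a8 rose from a very low level, and Slc39a14 was not called against LPS. Slc39a1 (chr3:90155138-90160924, plus strand) encodes ZIP1, a zinc importer of most cell types. Its normalised counts were 4394, 4487 and 4360 in Control, 7112, 7613 and 7183 in LPS, and 2396, 2416 and 2114 in LPS+NaBu. No groups overlapped, and LPS+NaBu lay below Control although LPS alone lay above it. The LPS mean was 1.65-fold that of Control (0.73 ± 0.05, limma, adjusted p = 1.23e-07), and the LPS+NaBu mean was 3.16-fold lower than that of LPS (-1.66 ± 0.05, adjusted p = 1.13e-11) and 1.91-fold lower than that of Control (-0.94 ± 0.05, adjusted p = 3.69e-09). A pseudogene copy, Slc39a1-ps, averaged 83.2, 106 and 31.2 normalised counts in the 3 groups, and how reads that match both copies were counted is uncertain. The antisense gene Gm66066 shares 1086 exonic bases with Slc39a1 and is not listed in the files.

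Slc39a10 (chr1:46845872-46964964, minus strand) encodes ZIP10, a plasma membrane importer. Its normalised counts were 4522, 4928 and 4591 in Control, 4682, 3562 and 4161 in LPS, and 1799, 1913 and 2058 in LPS+NaBu. The LPS libraries scattered widely and overlapped Control, and the LPS+NaBu libraries were below all others. LPS+NaBu was 2.15-fold lower than LPS (-1.10 ± 0.08, limma, adjusted p = 5.76e-08) and 2.43-fold lower than Control (-1.28 ± 0.08, adjusted p = 1.25e-08). The change from Control to LPS was -0.19 with a 95% interval of -0.37 to -0.002 (adjusted p = 0.0801), and it was called lower without LPS replicate 1 (-0.28, adjusted p = 0.00727), with the same sum of reads (-0.41, adjusted p = 0.00164) and by quantile normalization (-0.29, adjusted p = 0.0096). The opposite-strand genes that share exonic bases with Slc30a1, Slc30a4 and Slc39a10 reached at most 23.4, 7.04 and 17.8 normalised counts.

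Slc39a8 (chr3:135531040-135594333, plus strand) encodes ZIP8, an importer of zinc, manganese and other divalent metals that is known from activated immune cells. Here it was read at a low level, with normalised counts of 19.1, 20 and 12.1 in Control, 36.1, 12.9 and 21.2 in LPS, and 48.1, 79.2 and 115 in LPS+NaBu. Control and LPS overlapped, and the LPS+NaBu libraries lay above both but spread over more than a 2-fold range. LPS+NaBu was 3.46-fold LPS (1.77 ± 0.40, limma, adjusted p = 0.00130) and 4.74-fold Control (2.13 ± 0.40, adjusted p = 0.000336). Quantile normalization lowered these log2 changes to 1.17 and 1.42, both still called by limma. Between LPS and Control the 95% interval ran from -0.53 to 1.23 around a log2 change of 0.35 (adjusted p = 0.490), and without LPS replicate 1 the change was -0.01.

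Slc39a14 (chr14:70540678-70588914, minus strand) encodes ZIP14, an importer of zinc, manganese and non-transferrin-bound iron that is known for its induction by IL-6 in liver. Its normalised counts were 2833, 2880 and 2810 in Control, 3372, 2944 and 3306 in LPS, and 3059, 2907 and 3400 in LPS+NaBu. All libraries lay within a narrow band, and only the LPS and Control libraries, and the LPS+NaBu and Control libraries, did not overlap. The log2 change for LPS against Control, 0.17 ± 0.07 (limma, adjusted p = 0.0389), lost its call or turned to -0.05 (same sum of reads, adjusted p = 0.526) in 10 of 20 alternatives, among them those without Control replicate 1, 2 or 3, LPS replicate 1 or 3, or LPS+NaBu replicate 1. From LPS to LPS+NaBu the change was -0.04 with a 95% interval of -0.18 to 0.10 (adjusted p = 0.592), but it was 0.24 and called higher with the same sum of reads (adjusted p = 0.00842). Against Control the change with LPS+NaBu was 0.13 with a 95% interval of -0.01 to 0.27 (limma, adjusted p = 0.0810), and it was called without LPS replicate 2 or LPS+NaBu replicate 2. Il6 itself averaged 1.34 ± 2.32 normalised counts in Control, 250 ± 19.8 in LPS and 9.64 ± 2.40 in LPS+NaBu (SD, n = 3).

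Over the set, 4 of the 9 tested genes were called for LPS against Control, where 56.1% of all tested genes were called. All 4 were higher (25.2% of all tested genes were called higher and 30.8% lower), and the median log2 change was 0.17 beside -0.05 for all tested genes. Scaling to the same sum of reads moved the median of all tested genes to -0.27 in this comparison and turned the split of calls from 3739 higher and 4568 lower to 2273 higher and 7074 lower, so small changes here depend on the scaling. The counts of 4 higher and 0 lower became 3 and 3 under that scaling.

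For LPS+NaBu against LPS, 8 of 9 were called, where 78.1% of all tested genes were called: 6 higher (40.2% of all tested genes) and 2 lower (37.8%). The median log2 change was 0.75 beside 0.02 for all tested genes. Under the same sum of reads the median of all tested genes was 0.30, and calls over all genes went from 5956 higher and 5602 lower to 7417 and 4132. For LPS+NaBu against Control, which shares libraries with both other comparisons, the same 6 were higher and the same 2 lower, where 76.1% of all tested genes were called (40.9% higher and 35.1% lower). The median log2 change was then 0.76 beside 0.09 for all tested genes. These shares of called genes lie near the background, so their number alone says little about the set. The 8 genes called with LPS+NaBu kept direction and call in both comparisons under every alternative in which they were tested, and Slc39a8 was not tested at a minimum of 100.

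**Figure D4:**
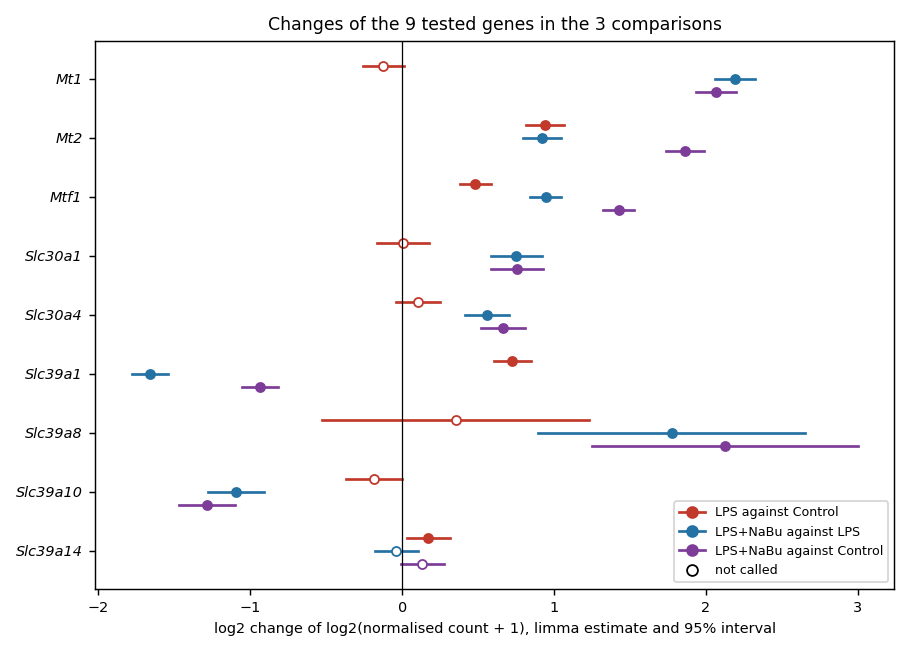
Log2 changes of the 9 tested genes in 3 comparisons, as points with 95% intervals from limma. Filled points were called at an adjusted p under 0.05 and open points were not. Mt1 and both Slc30 genes sit near 0 for LPS against Control and to the right of 0 in both NaBu comparisons, Slc39a1 changes side, and the intervals of Slc39a8 are the widest.

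Levels of different genes can be compared only per length. Per kilobase of merged exons, Mt1 averaged 10108 ± 516 normalised counts in Control (rank 124 of 38984 genes with a known length), 9291 ± 786 in LPS (rank 206) and 42366 ± 1604 in LPS+NaBu (rank 22). Mt2 averaged 5665 ± 362 (rank 255), 10879 ± 726 (rank 166) and 20560 ± 517 (rank 49) per kilobase (SD, n = 3). With canonical transcripts the ranks in Control, LPS and LPS+NaBu were 145, 213 and 19 for Mt1 and 385, 232 and 84 for Mt2. The pair led the set in every group, but the order of Mt1 and Mt2 in LPS turns with the transcript length used: with the canonical transcripts, Mt1 was at 15192 and Mt2 at 13817. In Control the order of levels per kilobase below the pair was Slc39a1 (1025 ± 15.2), Slc30a4 (616 ± 31.6), Slc39a10 (384 ± 17.8), Slc39a14 (235 ± 2.95), Slc30a1 (218 ± 9.77), Mtf1 (177 ± 6.68) and Slc39a8 (2.16 ± 0.550). With canonical transcripts, Slc39a10 (726 ± 33.7) came before Slc30a4 (632 ± 32.4) in Control.

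In LPS+NaBu the exporter Slc30a4 came next after the pair, at 978 ± 95.9 per kilobase, ahead of Slc39a1 at 536 ± 39.2 and Mtf1 at 477 ± 13.5. Slc30a1 (368 ± 16.4), Slc39a14 (258 ± 20.9) and Slc39a10 (158 ± 10.7) followed. This order too rested on merged exons: with canonical transcripts, Slc30a4 (1003 ± 98.4) and Slc39a1 (975 ± 71.2) differed by less than their spread, and Slc39a14 (601 ± 48.6) came before Mtf1 (569 ± 16.1) and Slc30a1 (395 ± 17.6). In LPS, Slc39a14 (265.3 ± 19.1), Mtf1 (248 ± 1.02) and Slc30a1 (219 ± 24.8) lay close together per kilobase of merged exons, but with canonical transcripts Slc39a14 was at 617 ± 44.3, Mtf1 at 295 ± 1.22 and Slc30a1 at 235 ± 26.6.

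The remaining transporters of both families show whether the 6 described above stand for their families. Of the 8 other Slc30 genes, 6 passed the filter, and Slc30a8 and Slc30a10 were at 0 in all libraries. Against LPS, LPS+NaBu had 3 of them called higher (40.2% of all tested genes), 1 lower (37.8%) and 2 neither, with a median log2 change of 0.50. Slc30a9 rose from 4005 ± 202 to 6286 ± 280 normalised counts (0.65, limma, adjusted p = 6.28e-08). Slc30a3, 1 of the 3 called higher, had 24.8, 13.4 and 34.5 normalised counts in LPS+NaBu and 0, 2.35 and 0 in LPS. It passed the filter through the LPS+NaBu libraries alone, so its calls as higher there were largely fixed in advance. It also enters the median above. Slc30a7, a ZnT of the early secretory pathway, fell from 5283 ± 473 to 3998 ± 206 (-0.40, adjusted p = 5.90e-05). In LPS against Control, 2 were higher (25.2% of all tested genes), Slc30a7 (0.36, limma, adjusted p = 0.000262) and Slc30a6 (0.36, adjusted p = 8.62e-05). The 1 lower gene (30.8% of all tested genes) was Slc30a5 (-0.44, limma, adjusted p = 1.50e-05), and 3 were not called. Compared with Control, LPS+NaBu had 3 higher (40.9% of all tested genes) and 1 lower (35.1%). Among them were Slc30a3 (1.93 ± 2.69 to 24.2 ± 10.6 normalised counts, with the same limit from the filter), Slc30a6 at 0.71 (limma, adjusted p = 5.62e-08) and Slc30a5 at -0.43 (adjusted p = 1.06e-05).

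Of the 10 other Slc39 genes, 9 passed the filter and Slc39a12 was at 0 in all libraries. Against LPS, 4 of these were called higher with LPS+NaBu (40.2% of all tested genes), 4 lower (37.8%) and 1 neither, with a median log2 change of 0.12. Slc39a2 had 56.5, 78.0 and 55.3 normalised counts in Control, 311, 371 and 336 in LPS, and 81.1, 79.2 and 57.1 in LPS+NaBu. Like Slc39a1, it was higher in every LPS library than in any other (2.42 for LPS against Control, limma, adjusted p = 1.83e-07, and -2.22 for LPS+NaBu against LPS, adjusted p = 1.63e-07). Slc39a13, a ZIP of the secretory pathway, rose from 1044 ± 82.3 to 1808 ± 128 with NaBu (0.79, limma, adjusted p = 1.16e-06). Slc39a11 fell with LPS (-0.50, limma, adjusted p = 2.88e-06) and rose from there with NaBu (0.64, adjusted p = 9.94e-08), and Slc39a6 fell in both steps (-0.34 and -0.43). With LPS alone 3 were higher than in Control (25.2% of all tested genes), 4 lower (30.8%) and 2 not called. For LPS+NaBu against Control 3 were higher (40.9%), 2 lower (35.1%) and 4 not called. Slc39a4 was highest there at 1.27 (limma, adjusted p = 2.83e-05), followed by Slc39a13 at 0.52. The lower ones were Slc39a6 (-0.76) and Slc39a9 (-0.37).

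**Figure D5:**
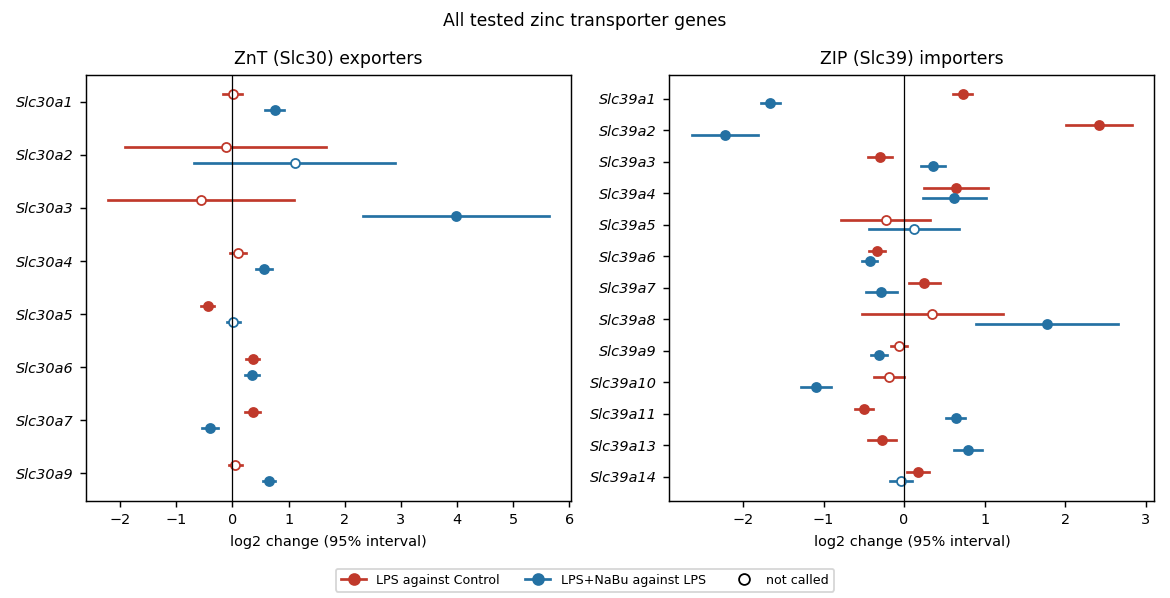
Log2 changes with 95% intervals of all tested Slc30 genes (left) and Slc39 genes (right) for LPS against Control and LPS+NaBu against LPS. Filled points were called at an adjusted p under 0.05 and open points were not. Slc39a1 and Slc39a2 lie on opposite sides of 0 in the 2 comparisons, and the weakly read Slc30a2, Slc30a3 and Slc39a8 have wide intervals.

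Genes other than Mt1, Mt2 and Slc30a1 that are known to depend on MTF-1 in some setting were Gclc, Ndrg1, Csrp1, Sepw1, Txnrd2 and Hmox1. All 6 were tested, and for LPS+NaBu against LPS 3 were called higher (40.2% of all tested genes) and 3 lower (37.8%), with a median log2 change of 0.09. Ndrg1, a gene of the hypoxia and differentiation response, had 809, 985 and 736 normalised counts in LPS and 11958, 11179 and 10904 in LPS+NaBu (3.76, limma, adjusted p = 1.87e-12). Csrp1, which encodes a LIM-domain protein, rose from 2239 ± 75.4 to 4407 ± 228 (0.98, adjusted p = 7.65e-10). Txnrd2, the mitochondrial thioredoxin reductase, fell by 1.08 on the log2 scale (limma, adjusted p = 2.27e-09), and Sepw1, a selenoprotein gene, by 0.82 (adjusted p = 1.32e-06). The third lower gene, Hmox1, changed by -0.22 (limma, adjusted p = 0.00106) and turned to 0.06 with the same sum of reads and to 0.27 by quantile normalization. After LPS alone, 2 were higher (Sepw1, 1.61, and Hmox1, 0.80) and 3 lower, led by Ndrg1 (-1.42) and Gclc (-1.24), beside 25.2% and 30.8% of all tested genes. For LPS+NaBu against Control 4 were higher, led by Ndrg1 (2.34) and Sepw1 (0.79), and 2 lower, Txnrd2 (-1.15) and Gclc (-0.85), beside 40.9% and 35.1%.

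The genes around the metallothionein cluster did not share 1 direction. Bbs2, which lies upstream on the minus strand, rose 2.44 on the log2 scale for LPS+NaBu against LPS (270 to 1468 normalised counts, limma, adjusted p = 1.6e-11), and Ogfod1 rose 0.75 (adjusted p = 2.21e-08). Nudt21, beyond Ogfod1, fell by 0.43 (adjusted p = 1.14e-05). Nup93, the next gene downstream of Mt1, had means of 5207 in LPS and 5302 in LPS+NaBu (0.03, adjusted p = 0.562). Mt4, the fourth metallothionein of the cluster, known from stratified epithelia, was at 0 in all Control and LPS libraries and averaged 7.40 ± 0.789 normalised counts in LPS+NaBu (SD, n = 3).

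Across the 9 libraries, Pearson's r of log2 values described which genes had patterns most like those of 5 genes of the set, with 3 libraries from each group, so the values mainly follow the 3 group means. Mt1 was most like Kif9 (r = 0.9996, 63.9, 57.1 and 402 normalised counts in Control, LPS and LPS+NaBu), Baiap2 and Snupn (r = 0.999 each), and 1727 genes had r over 0.95 with it. Mt2 was most like Atp6v1e1, Sqrdl and Tmsb10 (r = 0.997 each), with 461 genes over 0.95. Slc30a1 was most like Trim36 and Rapgef3 (r = 0.992 each) and Fam114a1 (0.991), with 848 such genes, and Slc39a10 was most like Anapc1 (0.999), Itga4 and Hipk3 (0.998 each), with 1253. Slc39a14, whose level hardly moved, had 4 such genes, led by Dock11 (0.968), Soat1 (0.966) and Krit1 (0.963). Within the set, r was 0.955 for Mt1 and Slc30a1, 0.978 for Mt2 and Mtf1, 0.836 for Mt1 and Mt2, and -0.975 for Mt1 and Slc39a10.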

How the data were processed

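RNA of RAW264.7 cells was sequenced in 9 libraries, 3 each of Control, LPS and LPS+NaBu, grouped by the treatment in the labels. The study's methods describe directional libraries, read trimming (Trimmomatic), alignment by HISAT2 and featureCounts on uniquely mapped reads. The tools named in the submitters' processing notes are STAR 2.7.7a and DESeq2, with the build mm39, and the labels give total RNA where the methods speak of mRNA, so the aligner and the strand setting behind the deposited values remain unclear. The deposited values are called FPKM, but the authors' deposited signal was found to be gene counts divided by 1 size factor per library: all values were whole multiples of 1 read's worth within 0.001, which also returned the reads. Values were joined by gene identifier (43629 genes) and put on the scale log2(normalised count + 1) for limma 3.58.1 (R 4.3.3), with an intensity trend, all 9 libraries in 1 fit, a minimum of 10 in 3 libraries, and Benjamini-Hochberg adjustment over 14808 genes. edgeR 4.0.16 and DESeq2 1.42.0 on the recovered reads, other pseudocounts (0.1 and 10), filters and scalings, a replicate block, and each library left out were the alternatives. Precision at these depths (37625419 to 64380392 reads) is limited by the 3 libraries per group, and the limit given for 0 reads covers counting error only. Replicates of a group differed by more than sampling noise. All 9 tested genes of the set are given in every comparison, and Mt3 by its reads. Of each further list, the called genes of largest change were named, at most 2 per direction, and for 5 genes the 3 with the highest Pearson's r. Tnf and Il6 served as reference points. Hmox1 and Atp13a1, named for their change with the scaling, Sod1, the neighbours of the cluster, Slc39a1-ps, the summed level of Mt1 and Mt2 and the Mt2 to Mt1 ratio were chosen after their values were seen. The genes, lists and tests were chosen with earlier results of these data known. The scripts were tested on simulated counts. Adgre1 and Selenow were matched by identifier to the names Emr1 and Sepw1 in the files. Locations and transcript lengths are from GENCODE M39 (GRCm39), to which 38984 genes matched, and promoters from RefSeq (9 of 10 genes matched).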

Additional observations from a re-analysis of the deposited data

How the results depend on the processing

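Of the recomputed log2 changes of the 9 tested genes, 509 kept direction and call, 10 gained a call, 9 lost it and 9 turned sign, and in both NaBu comparisons the 8 called genes kept theirs throughout. With the same sum of reads, 3 genes of the set (Mt1, Slc39a10 and Slc30a1) were lower for LPS against Control, and 2 by quantile normalization (Mt1 and Slc39a10), in place of 0, and leaving out single libraries gave 0 to 1 (1 without LPS replicate 1, Slc39a10, or replicate 2, Mt1). Changes that turned sign for LPS against Control were those of Slc30a1 (-0.22 with the same sum, -0.079 to 0.083 over the left-out libraries), Slc30a4 (-0.13, same sum), Slc39a8 (-0.0080 to 0.70 over the left-out libraries) and Slc39a14 (-0.055, same sum, and 0.13 to 0.23 over the left-out libraries). For LPS+NaBu against LPS, Slc39a14 turned to 0.24 (same sum) and 0.053 (quantile), and ran from -0.10 to 0.010 over the left-out libraries. Against Control it was called higher with the same sum (adjusted p = 0.0334), by quantile normalization (0.0277), and without LPS replicate 2 (0.0431) or LPS+NaBu replicate 2 (0.0348) by limma. Quantile normalization lowered the change of Slc39a8 with LPS+NaBu from 1.77 to 1.17 against LPS and from 2.13 to 1.42 against Control. The cause was not tested. Same-numbered replicates did not deviate together (correlations -0.0444 to 0.0202), and a replicate block left 4, 8 and 8 genes of the set called. The Mt2 to Mt1 ratio, added after seeing the data, moved by less than 1 SD without any library. Group sizes of 3 limit the exact tests, and the low counts of Slc39a8 and Mt3 limit theirs.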

Other observations

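Transcripts for copper, which metallothioneins also bind, were examined beside the zinc genes. Of 11 copper-handling genes, 10 were tested, and Sco2 was at 0 in all libraries. Between LPS and Control, 4 were called higher and 3 lower, led by the transporters Slc31a2 (867 ± 6.01 to 6767 ± 276 normalised counts, log2 change 2.96, limma, adjusted p = 9.55e-14) and Slc31a1 (1.04), and by Atp7b (-1.52) and Ccs (-0.24), beside 56.1% of all tested genes called. These 7 calls became 5 with edgeR, with a replicate block, without an intensity trend and without Control replicate 1 or 3 or LPS replicate 1 or 3, and 10 with the same sum of reads. The lower calls of Ccs and Sod1 lay near the threshold (limma, adjusted p = 0.0369 and 0.0360). With NaBu added, 7 were higher and 3 lower than in LPS, beside 78.1% of all tested genes called, and 8 to 10 were called under the alternatives. Atox1, the copper chaperone of the secretory pathway, rose from 3235 ± 378 to 11407 ± 576 (1.82, limma, adjusted p = 7.22e-11), and Atp7b, a copper ATPase best known from liver, rose from 6.67 ± 4.02 to 101 ± 10.5 (3.86, adjusted p = 1.70e-06). Slc31a2 fell by 2.10 (adjusted p = 1.77e-12) and Cox17 by 0.40. Against Control, 8 were higher with LPS+NaBu, led by Atp7b (2.34) and Atox1 (1.79), and Sco1 was lower (-0.33), with 7 to 10 called under the alternatives and 76.1% of all tested genes called.

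Of 5 tested transporters of other divalent metals, 4 were called lower and 1 higher for LPS+NaBu against LPS (37.8% and 40.2% of all tested genes). For LPS against Control, 3 were called higher and 1 lower (25.2% and 30.8% of all tested genes). One of those 3, Atp13a1, changed by 0.17 and turned to -0.06 with the same sum of reads. Slc11a1, the phagosomal metal transporter of macrophages, averaged 6813 ± 107 in Control, 13166 ± 406 in LPS and 3026 ± 119 in LPS+NaBu (-2.12 for LPS+NaBu against LPS, limma, adjusted p = 1.89e-13). Slc11a2, its widely expressed relative, went from 4728 ± 56.2 to 15991 ± 301 with LPS (1.76) and to 10506 ± 177 with NaBu. Tmem165 was lower with NaBu (-0.74), and Atp2c1 was lower with LPS (-0.42) and higher from there with NaBu (0.22). Against Control, 1 was higher, Slc11a2 (10506 beside 4728), and 4 were lower, led by Slc11a1 (-1.17) and Tmem165 (-0.59), beside 40.9% and 35.1% of all tested genes. S100a8, of the zinc-binding S100 proteins, averaged 18.1 ± 4.09, 101 ± 7.20 and 25.4 ± 3.26 in the 3 groups, and S100a9 was at 0 in every library.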
